A study of Homo sapiens with 6 samples.

Results

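Kinesins are motor proteins that walk along microtubules or take them apart. The family was read from HepG2 cells, a human liver cancer cell line, as every gene of the deposited table whose symbol is KIF or KIFC followed by digits and at most 1 letter. That rule finds 36 of the 20026 genes in the table. By their known roles, 12 were counted as mitotic (*KIF2C*, *KIF4A*, *KIF11*, *KIF14*, *KIF15*, *KIF18A*, *KIF18B*, *KIF20A*, *KIF20B*, *KIF22*, *KIF23* and *KIFC1*) and 14 as transport kinesins (*KIF1A*, *KIF1B*, *KIF1C*, *KIF3A*, *KIF3B*, *KIF3C*, *KIF5A*, *KIF5B*, *KIF13A*, *KIF13B*, *KIF16B*, *KIF17*, *KIFC2* and *KIFC3*). The other 10, with ciliary, microtubule-regulating or less known roles, are *KIF2A*, *KIF6*, *KIF7*, *KIF9*, *KIF12*, *KIF21A*, *KIF21B*, *KIF24*, *KIF26B* and *KIF27*. *KIF2B*, *KIF4B*, *KIF5C*, *KIF19*, *KIF25*, *KIF26A* and *KIF28P* were not analysed here.

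The 6 RNA-seq libraries form 3 groups of 2. Scr libraries come from scramble cells of genotype WT, which received the empty PX458 vector coding for Cas9 and GFP. In the genotypes miR-23a-KO and miR-27a-KO this vector also carried paired guide RNAs that cut on either side of the mature miRNA named, and colonies were grown from single sorted GFP-positive cells. Neither the labels nor the study's methods say whether the 2 libraries of a group are separate clones, cultures or preparations, so every p-value measures only the spread between these libraries. The miRNA genes *MIR23A* and *MIR27A* and their host transcript were not analysed here, so these counts do not show how much of either miRNA is left. The study measured both by qPCR in its knockout colonies.

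Mitotic kinesins assemble the spindle, position chromosomes and help to divide the cytoplasm, and most of their transcripts are made shortly before division. Transport kinesins carry vesicles, organelles, mRNAs and protein complexes along microtubules, several of them mainly in neurons or cilia. Liver cells in tissue rarely divide, whereas a liver cancer line in culture does, so both classes can be read in HepG2.

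The edited miRNAs are shown to give the seeds that the kinesin transcripts were searched for. They come from RefSeq on build GRCh38.p14, lie on the minus strand at chr19:13836595-13836615 and chr19:13836447-13836467, and have their seed (bases 2 to 8) in capitals, 5′ to 3′.
hsa-miR-23a-3p: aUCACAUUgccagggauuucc
hsa-miR-27a-3p: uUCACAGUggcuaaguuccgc
The seeds differ, and their complements in a transcript are AATGTGA for miR-23a-3p and ACTGTGA for miR-27a-3p.

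In the 3′-UTRs of GENCODE 29 on GRCh38, AATGTGA was found in 8 of the 36 kinesins (22.2%) and in 3078 of the 15925 table genes with a 3′-UTR (19.3%). The kinesins with it are *KIF11* and *KIF20B* among the mitotic class, *KIF1B*, *KIF1C*, *KIF5A*, *KIF13B* and *KIF16B* among the transport class, and *KIF6*. ACTGTGA was found in 2 kinesins (5.56%), *KIF1B* and *KIF3A*, against 2661 genes (16.7%). Mitotic kinesins have short 3′-UTRs, with a median of 584 bases against 2489 in the transport class and 1227 over all genes with one. The matches in 6 of these kinesins, with the matching bases in capitals and each run written 5′ to 3′ on the transcript strand, are the following.
KIF11 with AATGTGA: ttgttgccccaAATGTGAaagcatttcat
KIF5A with AATGTGA: acacataaggaAATGTGAgggtgtagcgc
KIF16B with AATGTGA: ctaaagagaaaAATGTGAgtggaaaaaat
KIF1C with AATGTGA: cagggagactcAATGTGAgcaagaaaatg
KIF1B with AATGTGA: tcccttttaaaAATGTGAttgttaacctg
KIF1B with ACTGTGA: ataggtcactaACTGTGAtgttatttgtt
KIF1B with a further ACTGTGA: gaaccatccccACTGTGAggctgtgagag
KIF3A with ACTGTGA: attgtttagatACTGTGAagagttgaggt
The capitals lie at chr10:92654738-92654744 (*KIF11*), chr12:57586285-57586291 (*KIF5A*), chr20:16272293-16272299 (*KIF16B*), chr17:5026277-5026283 (*KIF1C*), chr1:10380391-10380397, chr1:10378919-10378925 and chr1:10379497-10379503 (*KIF1B*) and chr5:132694769-132694775 (*KIF3A*). A match describes letters only. None of *KIF1A*, *KIF3C*, *KIF4A* and *KIF17*, the kinesins called in a comparison, has either 7-base match in its 3′-UTR.

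Promoters are shown because most mitotic kinesins lay higher in the knockouts, and the classes differ in short promoter motifs. RefSeq promoters on GRCh38.p14, from 250 bases before to 50 bases after the start, were matched for 29 of the 36 kinesins, with *KIF5A*, *KIF13B*, *KIF21B*, *KIF26B*, *KIF27*, *KIFC2* and *KIFC3* missing. The motifs searched on both strands were TTTGAA, the core of a cell-cycle element, CCAAT, the core of the CCAAT box, and GGGCGG, the GC box. None of the motifs contains another. In the runs here, capitals mark TTTGAA and CCAAT, or their reverse complements, on the gene's strand written 5′ to 3′.
KIF4A: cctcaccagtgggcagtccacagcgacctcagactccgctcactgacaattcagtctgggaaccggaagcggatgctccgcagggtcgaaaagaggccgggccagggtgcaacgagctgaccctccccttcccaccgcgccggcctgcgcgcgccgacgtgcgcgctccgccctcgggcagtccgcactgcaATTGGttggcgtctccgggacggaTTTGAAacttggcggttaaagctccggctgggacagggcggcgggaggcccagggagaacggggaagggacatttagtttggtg
KIFC1: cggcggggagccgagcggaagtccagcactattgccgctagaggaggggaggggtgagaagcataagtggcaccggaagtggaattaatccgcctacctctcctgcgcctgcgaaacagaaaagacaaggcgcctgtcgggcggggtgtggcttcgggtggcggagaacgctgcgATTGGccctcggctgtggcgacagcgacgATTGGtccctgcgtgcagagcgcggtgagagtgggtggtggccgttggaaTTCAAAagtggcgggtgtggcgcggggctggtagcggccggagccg
KIF11: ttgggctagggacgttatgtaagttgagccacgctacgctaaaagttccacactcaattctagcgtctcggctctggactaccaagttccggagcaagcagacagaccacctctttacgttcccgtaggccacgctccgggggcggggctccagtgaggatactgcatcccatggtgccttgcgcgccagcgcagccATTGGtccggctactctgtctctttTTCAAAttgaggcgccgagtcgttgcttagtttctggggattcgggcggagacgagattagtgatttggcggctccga
KIF20A: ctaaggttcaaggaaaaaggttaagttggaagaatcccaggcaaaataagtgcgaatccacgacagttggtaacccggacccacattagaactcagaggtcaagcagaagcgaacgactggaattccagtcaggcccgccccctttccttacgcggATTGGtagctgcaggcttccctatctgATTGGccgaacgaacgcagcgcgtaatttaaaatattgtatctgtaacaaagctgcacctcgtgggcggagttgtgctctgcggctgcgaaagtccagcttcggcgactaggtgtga
KIF5B: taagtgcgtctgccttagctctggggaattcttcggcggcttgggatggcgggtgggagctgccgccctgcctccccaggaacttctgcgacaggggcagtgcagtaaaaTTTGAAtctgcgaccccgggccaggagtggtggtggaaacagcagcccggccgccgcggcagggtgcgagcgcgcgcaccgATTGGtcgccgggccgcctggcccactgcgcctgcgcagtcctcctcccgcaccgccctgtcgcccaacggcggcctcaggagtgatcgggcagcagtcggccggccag
KIF3C: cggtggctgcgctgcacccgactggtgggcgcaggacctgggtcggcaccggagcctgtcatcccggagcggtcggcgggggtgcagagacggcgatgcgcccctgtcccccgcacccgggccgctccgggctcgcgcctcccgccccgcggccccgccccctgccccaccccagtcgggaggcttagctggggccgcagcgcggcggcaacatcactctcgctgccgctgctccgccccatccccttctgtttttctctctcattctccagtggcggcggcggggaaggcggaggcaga
They span chrX:70289854-70290153 (*KIF4A*), chr6:33391573-33391872 (*KIFC1*), chr10:92592880-92593179 (*KIF11*), chr5:138178862-138179161 (*KIF20A*), and on the minus strand chr10:32056376-32056675 (*KIF5B*) and chr2:25982448-25982747 (*KIF3C*). *KIF3C* holds neither motif in this window and so has no capitals.

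TTTGAA was found in 9 of 12 mitotic kinesins (75.0%), the exceptions being *KIF2C*, *KIF20A* and *KIF22*. It was found in 1 of 10 transport kinesins, *KIF5B*, and in 0 of 7 others. A gene was counted when any of its promoters held the motif, and of the 15000 table genes with a promoter 15.1% did. TTTGAA lies 34 bases before the start in *KIF4A* (position -34) and at -28 in *KIF11*, at 5 in *KIFC1* and at -140 in *KIF5B*. CCAAT was found in 10 of 12 mitotic and 3 of 10 transport kinesins, against 41.7% of the table's genes. GGGCGG separates the classes less, with 11 of 12 mitotic and 10 of 10 transport kinesins against 67.4% of the table's genes. These shares describe the windows and were not tested, and no binding was measured.

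**Figure D1:**
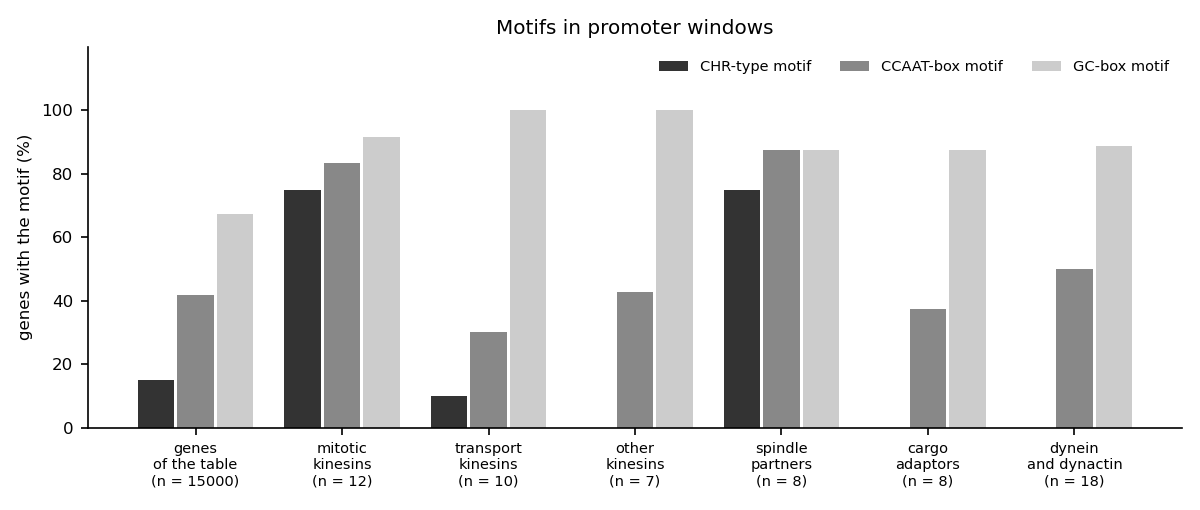
Percent of genes (y axis) whose promoter window holds each of 3 motifs, for kinesin classes, related gene lists and all genes of the table (x axis, with the number of genes). TTTGAA, drawn as the CHR-type motif, was found in 75.0% of mitotic and 10.0% of transport kinesins, against 15.1% of the table's genes.

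For each library the authors deposited expected counts, with totals from 14405250 in Scr replicate 2 to 16515261 in miR-23a KO replicate 1. The albumin gene *ALB*, a hepatocyte marker, had 149877 and 223691 counts in Scr, 103839 and 271337 in the miR-23a knockout, and 34460 and 35719 in the miR-27a knockout. *ALB* was thus high in every library and lowest in the miR-27a knockout. The transferrin gene *TF*, also a hepatocyte marker, was highest there, with 108096 and 112041 counts against 47715 and 33553 in Scr. Of 7 markers of blood, endothelial and connective tissue cells, 5 were in the table, and *PTPRC* and *COL1A1* stayed between 0 and 2 counts. *VWF* had 0 to 19, *PECAM1* 23 to 120 and the lysosomal gene *CD68* 1312 to 2324. A wording of the labels' cell type that does not belong to HepG2 was not used. In bulk RNA, fewer cells of a kind, such as cells about to divide, and less RNA per cell cannot be told apart.

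In Scr cells, levels were compared per transcript length, as CPM (counts scaled to library size with TMM factors) per kilobase. *KIF1C*, which moves Golgi-derived vesicles, had the highest level of the 36 at 53.7 ± 2.06 (SD, n = 2), followed by the chromokinesin *KIF22* at 49.3 ± 3.54. These neighbours differ by little more than their spread. Next came the microtubule-depolymerising *KIF2C* at 29.3 ± 0.717, the minus-end motor *KIFC3* at 25.6 ± 3.62 and the spindle-pole motor *KIFC1* at 23.8 ± 1.36, of which the last pair do not differ beyond their spread. Neuronal *KIF1A* stood at 0.671 ± 0.129 and the cytokinesis motor *KIF14* at 0.131 ± 0.0507. *KIF6* had 0 counts in 5 libraries and 2 in miR-27a KO replicate 2, *KIF26B* between 1 and 6, and both were removed by the filter on low counts, leaving 34 kinesins tested.

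Summed over the 12 mitotic kinesins, CPM were 410 and 422 in Scr, 588 and 585 in the miR-23a knockout, and 497 and 506 in the miR-27a knockout. Both knockout groups lay above Scr without overlap. The share of *KIF22* in that sum was 31.6% and 27.8% in Scr, and then 45.3% in miR-23a KO replicate 1 but 19.8% in replicate 2, so its members differ between libraries with equal sums. The transport sum was 981 and 1015 in Scr, 1338 and 1115 in the miR-23a knockout, and 924 and 927 in the miR-27a knockout. It lay above Scr in the miR-23a knockout and below Scr in the miR-27a knockout, with *KIF1C* making up 38.9% to 58.5% of it. *KIF1C* had 783 and 434 CPM in the miR-23a KO libraries against 414 and 437 in Scr. Of the 14 transport kinesins, 4 lay above the mean of Scr in miR-23a KO replicate 1 and 9 in replicate 2. The higher sum in replicate 1 is thus not a rise of most members.

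The miR-23a KO libraries stand apart from each other, and this bears on every result that uses them. Of the 34 tested kinesins, 19 differed more than 2-fold between the miR-23a KO libraries, 6 between the Scr libraries and 0 between the miR-27a KO libraries. The median absolute log2 difference was 1.12, 0.30 and 0.10 in that order. Over 14163 genes, 6635 differed more than 2-fold in the miR-23a KO pair, 1230 in the Scr pair and 447 in the miR-27a KO pair, so the split is not particular to kinesins. The differences ran with base composition. Across the 34 kinesins, which are not independent replicates and share the same libraries, the log2 ratio of replicate 2 to replicate 1 correlated with GC content at Pearson's r = -0.73 and Spearman's rho = -0.71 in the miR-23a knockout. The same correlation was -0.77 and -0.81 in Scr, and 0.18 and 0.21 in the miR-27a knockout. Over 13464 genes it was -0.64 and -0.66 in the miR-23a knockout, -0.37 and -0.45 in Scr, and -0.04 and -0.10 in the miR-27a knockout.

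**Figure D2:**
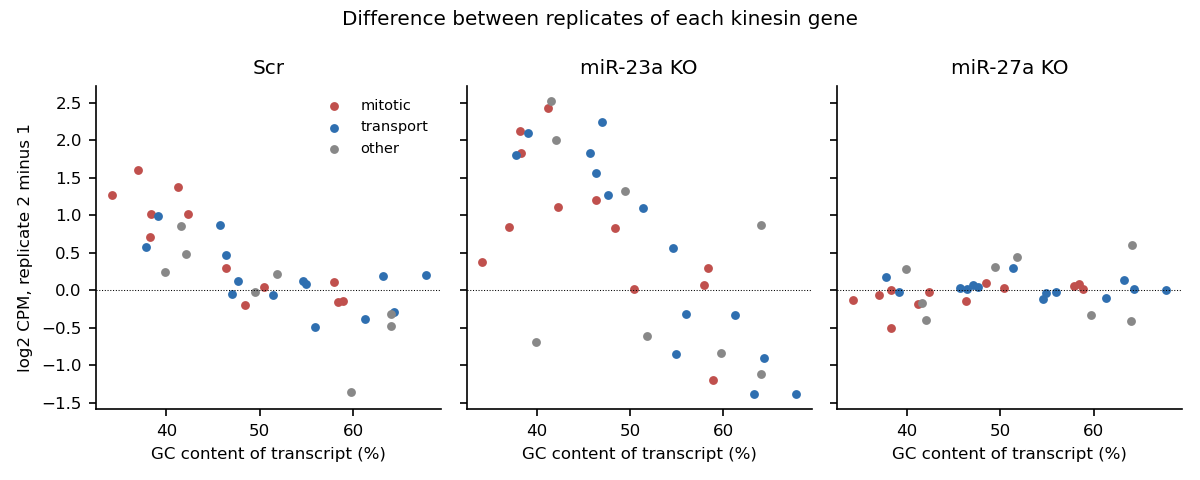
Log2 ratio of replicate 2 to replicate 1 (y axis) against GC content of the transcript in percent (x axis) for the 34 tested kinesins, 1 panel per group. AT-rich kinesins tend to be higher in replicate 2 of Scr and of miR-23a KO (Pearson's r = -0.77 and -0.73), though *KIF27* is at -0.69 in miR-23a KO. The miR-27a KO points have a median absolute value of 0.10, with *KIF7* at 0.60.

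Mitotic kinesins are the more AT-rich class, with a median GC content of 44.4% (34.2% to 58.9%) against 53.0% (37.8% to 67.8%) in the transport class and 49.7% over all genes. Class and base composition therefore overlap in part, and the share of GC content in the class difference was examined only by the corrected fits. After correction for GC content and length, the mitotic median in miR-23a KO against Scr went from 0.71 to 0.67 and the transport median from 0.28 to 0.18. In miR-27a KO against Scr they went from 0.37 to 0.34 and from -0.00 to 0.01. Between the knockouts, mitotic minus transport went from 0.17 to 0.04, and to 0.03 with the replicate number as a block as well.

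Relative to the mean of Scr, the median log2 level of the 12 mitotic kinesins was 0.30 and 0.98 in the miR-23a KO libraries and 0.44 and 0.43 in the miR-27a KO libraries, with the Scr libraries at -0.25 and 0.25. For the 14 transport kinesins it was -0.58 and 0.21 in the miR-23a knockout, and -0.01 and 0.02 in the miR-27a knockout, with Scr at -0.06 and 0.06. Mitotic minus transport was 0.88 and 0.77 in the miR-23a knockout, 0.45 and 0.41 in the miR-27a knockout, and -0.19 and 0.19 in Scr. All 4 knockout libraries thus lay above both Scr libraries in this difference, also where their transport medians split. Medians over all 14163 genes were between -0.07 and 0.02 in the knockout libraries. Both knockout groups are set against the same Scr libraries, and no test was made over the class.

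**Figure D3:**
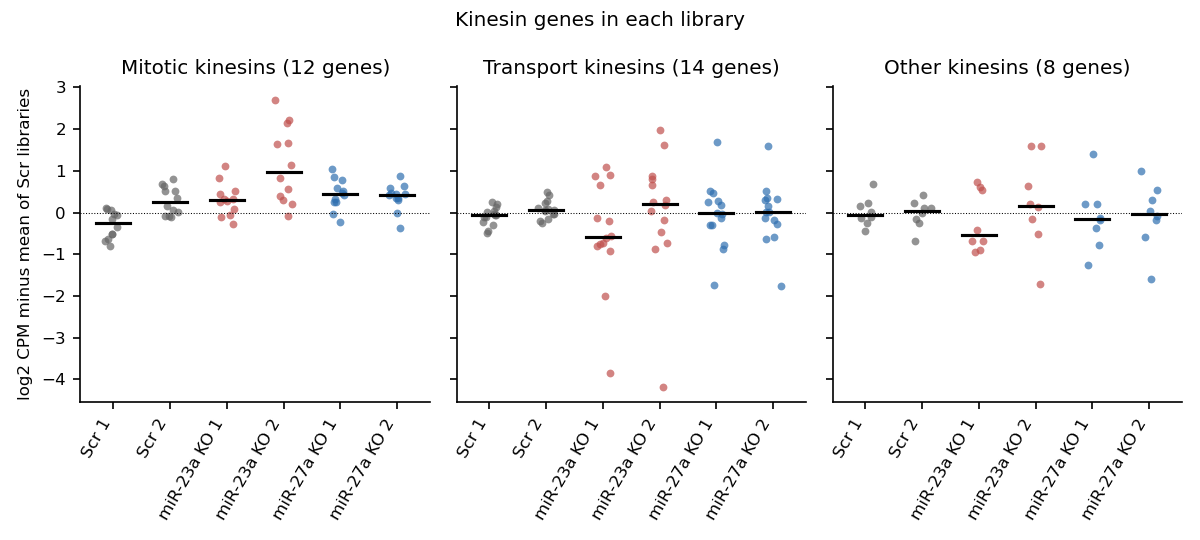
Log2 level of each tested kinesin relative to the mean of Scr (y axis) in each of the 6 libraries (x axis), 1 panel per class, with the class median as a bar. Mitotic medians lie between 0.30 and 0.98 in the 4 knockout libraries, and transport medians between -0.58 and 0.21.

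In miR-23a KO against Scr cells, all 12 mitotic kinesins had a higher fitted value, with a median log2 fold change of 0.71 (0.14 to 1.94), and 8 were over 1.5-fold higher. Of all genes 63.0% were higher and 20.1% over 1.5-fold higher. Of the 14 transport kinesins 9 were higher, with a median of 0.28 (-4.48 to 1.30), and over all 13786 genes tested the median was 0.16. The 8 others tested had a median of 0.25. By edgeR's quasi-likelihood test, 0 of the 34 kinesins were called, meaning an adjusted p under 0.05 with more than a 1.5-fold difference, and the share of all genes called was 0% higher and 0% lower. At an unadjusted p under 0.05 there was 1 kinesin, *KIF1A*, and 118 genes higher with 214 lower in all. DESeq2 called 1 kinesin, again *KIF1A*, and 4 higher and 59 lower genes. For the miR-23a KO pair, no overlap with Scr was seen on the higher side in 6 of the 34 kinesins (17.6%), where the share of all genes was 8.88%, and on the lower side in 4 (11.8%), where it was 14.9%.

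The mitotic count rests in part on 1 library. Without miR-23a KO replicate 2, 9 of 12 mitotic kinesins were higher and their median was 0.26, and without replicate 1 it was 11 of 12 and 0.96, where 46.2% and 47.8% of all genes were higher. Without Scr replicate 2 the median was 1.16. The transport median was -0.59 without miR-23a KO replicate 2 and 0.04 without Scr replicate 1. The difference of the medians, 0.43 with all libraries, was 0.73 without Scr replicate 2, 0.71 with miR-23a KO replicate 1 left out and 0.85 with its replicate 2 left out. Called kinesins went from 0 to 4 without miR-23a KO replicate 1 (*KIF5B*, *KIF11* and *KIF21A* higher, *KIF1A* lower), or 11.8% of them against 4.12% of all genes in that fit. Without replicate 2 they were 7 (*KIF1C*, *KIF17*, *KIF22*, *KIFC2* and *KIFC3* higher, *KIF1A* and *KIF1B* lower), or 20.6% against 18.6% of all genes. *KIF1A* alone was in both lists.

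*KIF11* (gene 3832) slides spindle microtubules apart to keep the spindle bipolar. It had 88 and 186 counts in Scr and 144 and 734 in the miR-23a knockout. Scaled to library size, replicate 2 was well above Scr and replicate 1 lay between the Scr libraries. Its log2 fold change was 1.54 (standard error, SE, 0.74, adjusted p = 1.00 by edgeR), 0.92 with GC content and length corrected, 0.23 without miR-23a KO replicate 2 and 2.15 without Scr replicate 2. *KIF15* (gene 56992), which can take over from *KIF11* in the spindle, had 19 and 54 counts in Scr and 35 and 278 in the miR-23a knockout. *KIF14* (gene 9928), needed for cytokinesis, had 10 and 18 counts in Scr and 13 and 88 in the miR-23a knockout. Both show the same layout, 1 high library and 1 inside the range of Scr. Their log2 fold changes were 1.94 (SE 0.96) and 1.69 (SE 0.95), with GC content and length corrected they were 1.42 and 1.00, and without miR-23a KO replicate 2 they were 0.10 and 0.05.

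*KIFC1* (gene 3833), a minus-end motor that gathers spindle poles, had 61.8 and 67.1 CPM in Scr and 81.1 and 84.9 in the miR-23a knockout. Here both knockout libraries lay close together and above Scr. The log2 fold change was 0.43 (SE 0.43, adjusted p = 1.00 by edgeR). *KIF2C*, *KIF18A* and *KIF23* were the other mitotic kinesins without overlap, named after their values were seen. In *KIF18A* and *KIF23* the separation was very small. *KIF18A* had 1.979 CPM in miR-23a KO replicate 1 against 1.96 in Scr replicate 2, and *KIF23* had 14.23 against 14.06 in the same libraries. *KIF2C*, which depolymerises microtubules at kinetochores, had 85.1 and 88.1 CPM in Scr and 105.6 and 107.2 in the miR-23a knockout. *KIF20A* (gene 10112), which brings the chromosomal passenger complex to the central spindle, had 65.2 and 56.6 CPM in Scr and 50.1 and 89.5 in the miR-23a knockout. These *KIF20A* libraries lie on either side of Scr, and its log2 fold change of 0.28 (SE 0.49) was -0.28 without replicate 2. *KIF4A* was at 24.3 and 56.0 CPM in the miR-23a knockout, the lower library within Scr, with a log2 fold change of 0.74 (SE 0.56) that was -0.08 without replicate 2.

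Among transport kinesins, *KIF1A* (gene 547, chr2:240713761-240821036) carries synaptic vesicle precursors in neurons. It had 101 and 79 counts in Scr, 4 and 4 in the miR-23a knockout, and 330 and 310 in the miR-27a knockout. The miR-23a KO libraries were far below Scr and the miR-27a KO libraries above it, with no overlap of the 3 groups. In CPM its levels were 6.18 ± 1.19 (SD, n = 2) in Scr, 0.260 ± 0.0629 in the miR-23a knockout and 19.3 ± 0.937 in the miR-27a knockout. In the miR-23a knockout its log2 fold change was -4.48 (SE 0.81), with an unadjusted p of 0.000505 and an adjusted p of 0.367 by edgeR. Over 7 other settings the value ran from -4.56 to -4.44 and the adjusted p from 0.000361 to 0.301, and 3 of the 7 gave a call. Leaving out miR-23a KO replicate 1 or 2 also gave a call (-4.75 and -4.30, adjusted p = 0.0318 and 0.00527 by edgeR). Leaving out Scr replicate 1 or 2 did not (-4.31 and -4.66, adjusted p = 1.00 and 0.790 by edgeR).

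*KIF5B* (gene 3799), the widely expressed conventional kinesin heavy chain, had 18.7 and 37.4 CPM in Scr and 24.1 and 103.8 in the miR-23a knockout. Replicate 2 was high and replicate 1 lay within Scr. Its log2 fold change was 1.30 (SE 0.74), 0.70 with GC content and length corrected and -0.22 without replicate 2. *KIF16B* (gene 55614), which moves early endosomes, had 7.0 and 12.8 CPM in Scr and 8.1 and 29.5 in the miR-23a knockout, with a log2 fold change of 1.03 that was 0.91 when corrected in the same way and -0.28 without replicate 2. *KIF3C* (gene 3797), a kinesin-2 subunit that pairs with KIF3A, had 76.6 and 54.5 CPM in Scr and 44.0 and 35.4 in the miR-23a knockout. Both of these libraries were below both Scr libraries. The log2 fold change was -0.66 (SE 0.45, adjusted p = 1.00 by edgeR), -0.47 with GC content and length corrected and -0.43 without Scr replicate 1.

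Of the kinesins with other roles, *KIF21A* (gene 55605), a regulator of microtubule growth at the cell cortex, had 8.0 and 11.2 CPM in Scr and 7.1 and 28.7 in the miR-23a knockout. These libraries lie on either side of Scr, and its log2 fold change of 1.00 was 0.63 with GC content and length corrected and -0.44 without replicate 2. *KIF21B* (gene 23046), its neuronal relative, had 4.5 and 1.7 CPM in Scr and 1.4 and 0.75 in the miR-23a knockout, so both knockout libraries lay below Scr while the Scr libraries differed widely. The log2 fold change of *KIF21B* was -1.45 (SE 0.82), and -0.60 without Scr replicate 1.

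Sorted by promoter, the 9 mitotic kinesins with TTTGAA had a median log2 fold change of 1.20 (0.14 to 1.94) in the miR-23a knockout, and the 3 without it 0.36 (0.28 to 0.67). In the miR-27a knockout the medians were 0.45 and 0.27. The groups overlap in range. With GC content and length corrected the medians were 0.74 and 0.55 in the miR-23a knockout and 0.47 and 0.29 in the miR-27a knockout. For miR-23a KO against Scr they were 0.23 and 0.29 without miR-23a KO replicate 2, 1.57 and 0.35 without miR-23a KO replicate 1, 0.56 and 0.33 without Scr replicate 1, and 1.81 and 0.39 without Scr replicate 2. For miR-27a KO against Scr they were 0.28 and 0.25 without Scr replicate 1, and 0.97 and 0.20 without Scr replicate 2. The 3 without TTTGAA, *KIF2C*, *KIF20A* and *KIF22*, have GC contents of 50.4%, 48.4% and 58.9%, above the class median of 44.4%. Across the 12 mitotic kinesins, log2 fold change correlated with GC content at Pearson's r = -0.66 in the miR-23a knockout. In the miR-27a knockout r was 0.02. The difference between kinesins with and without TTTGAA was not tested.

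**Figure D4:**
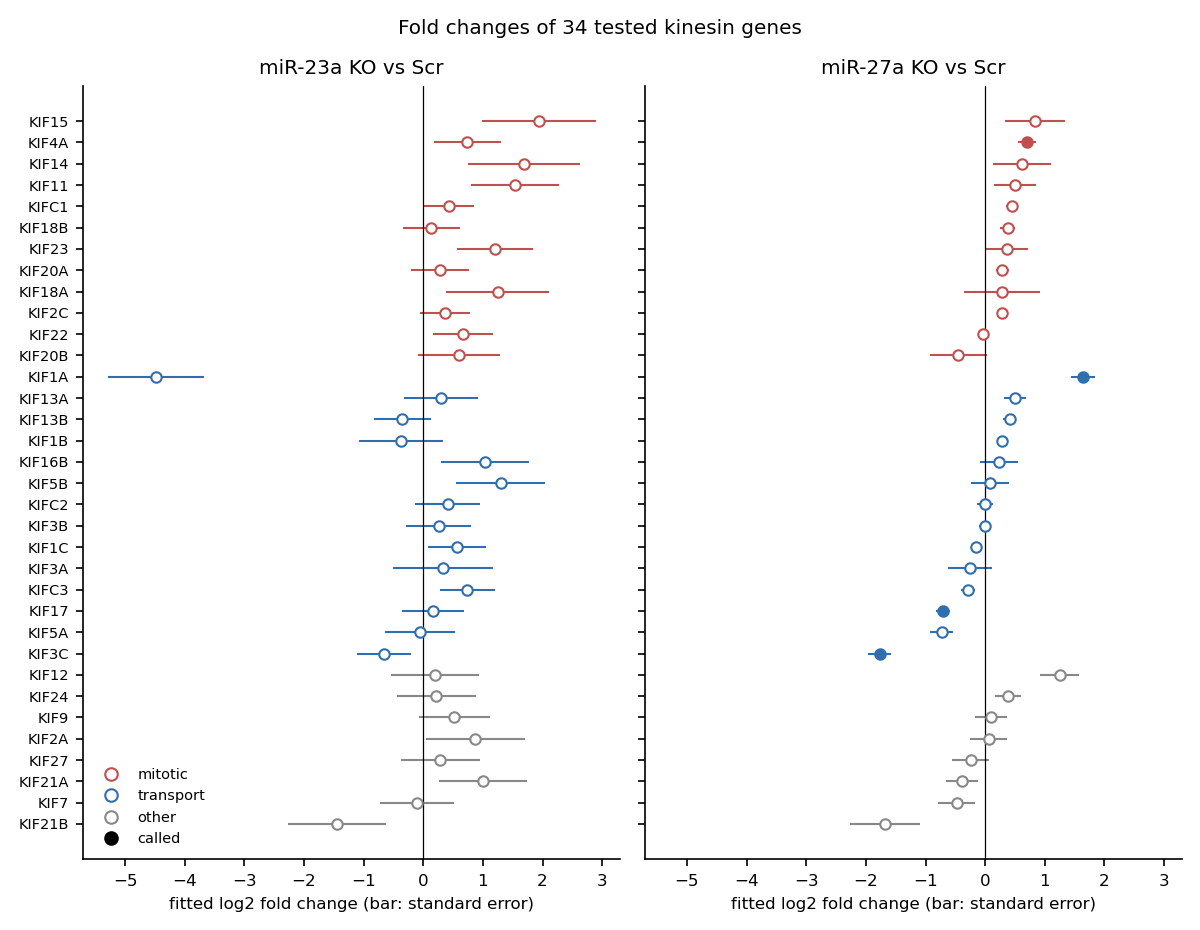
Fitted log2 fold change (x axis) with its standard error for each of the 34 tested kinesins, by class, in miR-23a KO against Scr and in miR-27a KO against Scr. Filled points are called, open points are not, and the filled ones are *KIF1A*, *KIF4A*, *KIF3C* and *KIF17* in the miR-27a knockout.

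In miR-27a KO against Scr cells, 4 of the 34 kinesins were called by edgeR, *KIF1A* and *KIF4A* higher and *KIF3C* and *KIF17* lower. That is 2 in each direction, where the share of all 13820 genes called was 3.52% higher and 6.74% lower. Of the 12 mitotic kinesins 10 were higher, with a median log2 fold change of 0.37 (-0.45 to 0.83), and the 14 transport kinesins had 6 higher and 8 lower with a median of -0.00 (-1.77 to 1.64). Over all genes the median was 0.01, with 50.9% higher. The miR-27a KO pair exceeded both Scr libraries without overlap in 13 kinesins (38.2%), where the share of all genes was 32.4%, and lay below them in 6 (17.6%), where it was 31.9%. Of these 13, 7 were mitotic, and 0 mitotic kinesins lay below Scr without overlap. The mitotic kinesins with a lower fitted value were *KIF22* at -0.03 and *KIF20B* at -0.45. *KIF20B* had 2.7 and 6.8 CPM in Scr and 3.6 and 3.3 in the miR-27a knockout, inside the range of Scr. Its log2 fold change was -0.96 without Scr replicate 1, and ran up to 0.36 with other libraries left out in turn. At the study's threshold of an adjusted p under 0.001, 0 kinesins and 4 genes in all passed edgeR's test, while at an unadjusted p under 0.05 there were 14 kinesins (41.2%, against 32.2% of all genes), and DESeq2 at 0.05 called the same 4, with 564 genes higher and 1058 lower.

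*KIF1A*, whose counts are given above, rose by a log2 fold change of 1.64 (SE 0.21, adjusted p = 0.0137 by edgeR). *KIF3C* (chr2:25926596-25982749) had 76.6 and 54.5 CPM in Scr and 19.4 and 19.1 in the miR-27a knockout. Its knockout libraries were nearly equal and well below both Scr libraries. *KIF3C* fell by 1.77 on the log2 scale (SE 0.19, adjusted p = 0.00943 by edgeR). *KIF17* (gene 57576, chr1:20664014-20718017), a kinesin-2 of cilia and dendrites, had 72.0 and 82.3 CPM in Scr and 45.0 and 49.5 in the miR-27a knockout. Again both knockout libraries lay below Scr. *KIF17* fell by 0.71 (SE 0.11, adjusted p = 0.0216 by edgeR). In the miR-23a knockout its libraries, at 122.3 and 46.6 CPM, lay on either side of Scr.

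*KIF4A* (gene 24137, chrX:70290090-70420832), a chromokinesin that also shapes the central spindle with PRC1, had 23.0 and 28.3 CPM in Scr and 43.8 and 39.8 in the miR-27a knockout. Both knockout libraries lay above Scr by more than the spread within either group. *KIF4A* rose by 0.70 (SE 0.15, adjusted p = 0.0380 by edgeR). Its near-identical copy *KIF4B* is not in the table, and whether reads of the copy were counted for *KIF4A* was not tested. *KIFC1* had 61.8 and 67.1 CPM in Scr and 86.1 and 89.9 in the miR-27a knockout. It also lay above Scr in both libraries, but its log2 fold change of 0.45 (SE 0.09, adjusted p = 0.0361 by edgeR) is under the 1.5-fold threshold. With GC content and length corrected it was 0.72 and *KIFC1* was called.

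Of these calls, *KIF3C* was the one kept without each library in turn. With all 6 libraries in 1 fit, all 4 were lost at nearly the same log2 fold changes, *KIF1A* at 1.64, *KIF3C* at -1.77, *KIF17* at -0.71 and *KIF4A* at 0.71 (adjusted p = 0.187, 0.114, 0.939 and 0.916 by edgeR), and 0.452% of all genes were called. *KIF1A* was lost without miR-27a KO replicate 1 (1.60, adjusted p = 0.0575 by edgeR) and without replicate 2 (1.70, 0.0569). *KIF17* was lost without the same libraries (-0.64 and -0.77, adjusted p = 0.198 and 0.137 by edgeR) and with GC content and length corrected (-0.41). *KIF4A* was lost without miR-27a KO replicate 1 (0.64), without replicate 2 (0.78) and without Scr replicate 1 (0.57, under 1.5-fold), and with no filter on low counts (0.72, adjusted p = 0.0673 by edgeR). The number of called kinesins was 6 without Scr replicate 1, 13 without Scr replicate 2 and 1 without either miR-27a KO library, *KIF3C* each time. The share of all genes called went from 10.3% to 16.0%, 26.0%, 2.96% and 2.34% in the same fits, against 11.8%, 17.6%, 38.2%, 2.94% and 2.94% of kinesins. Without Scr replicate 2 the mitotic median was 0.69 and mitotic minus transport went from 0.37 to 0.59. The transport median was -0.13 without Scr replicate 1 and 0.09 without Scr replicate 2.

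Of the other mitotic kinesins, *KIF20A* had 65.2 and 56.6 CPM in Scr and 72.1 and 77.1 in the miR-27a knockout, above Scr in both libraries, with a log2 fold change of 0.29 (SE 0.11, adjusted p = 0.141 by edgeR). *KIF11* had 13.3 CPM in each miR-27a KO library, just above the higher Scr library. Its log2 fold change of 0.51 (SE 0.35) was 0.09 without Scr replicate 1, and without Scr replicate 2 it was 1.12 and *KIF11* was called. *KIF15*, with 78 and 69 counts against 19 and 54, had 0.83 (SE 0.50), which was 0.29 without Scr replicate 1 and 1.74 without Scr replicate 2, where it too was called. *KIF14*, with 29 and 20 counts against 10 and 18, had 0.62, which was 0.28 without Scr replicate 1, 1.08 without Scr replicate 2, 0.33 without miR-27a KO replicate 1 and 0.88 without miR-27a KO replicate 2, with no call in any of these fits. The values of these 3 AT-rich kinesins thus depend on which Scr library is kept, and that of *KIF14* also on the miR-27a KO library.

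Among transport kinesins that missed the threshold, *KIF5A* (gene 3798), the neuronal conventional heavy chain, had 15.6 and 14.9 CPM in Scr and 8.2 and 10.2 in the miR-27a knockout. It lay below Scr in both libraries, with a log2 fold change of -0.73 (SE 0.19, adjusted p = 0.0637 by edgeR), and was called without either Scr library (-0.69 and -0.76) but not without either miR-27a KO library (-0.58 and -0.88). In the miR-23a knockout it stood at 8.8 and 18.8 CPM, on either side of Scr. *KIF5B*, its widely expressed relative, had 29.9 and 29.4 CPM in the miR-27a knockout, inside the range of Scr, and a log2 fold change of 0.08 (SE 0.32). That value was -0.07 with GC content and length corrected, -0.33 without Scr replicate 1, and 0.67 with a call without Scr replicate 2. *KIF16B* had 11.5 and 11.8 CPM in the miR-27a knockout, also inside the range of Scr, and a log2 fold change of 0.23 that was -0.13 without Scr replicate 1 and 0.74 with a call without Scr replicate 2.

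*KIF12* (gene 113220), linked to inherited cholestasis, had 33 and 27 counts in Scr and 93 and 70 in the miR-27a knockout. Both knockout libraries were above Scr. Its log2 fold change was 1.25 (SE 0.33, adjusted p = 0.0634 by edgeR), and it was called without Scr replicate 1 (1.43) or 2 (1.10) and with GC content and length corrected (1.60), but not without miR-27a KO replicate 1 or 2 (1.03 and 1.46, adjusted p = 0.499 and 0.281 by edgeR). *KIF21B* had 65 and 25 counts in Scr and 18 and 14 in the miR-27a knockout. The knockout libraries were again lower, by an amount that depends on the Scr library, with a log2 fold change of -1.68 (SE 0.58, adjusted p = 0.120 by edgeR) that was -0.80 without Scr replicate 1 and -2.22 with a call without Scr replicate 2. *KIF21A*, with 138 and 105 counts against 115 and 166, had -0.39, which was -0.61 without Scr replicate 1, -0.12 without Scr replicate 2, -0.60 without miR-27a KO replicate 1 and -0.19 without miR-27a KO replicate 2.

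**Figure D5:**
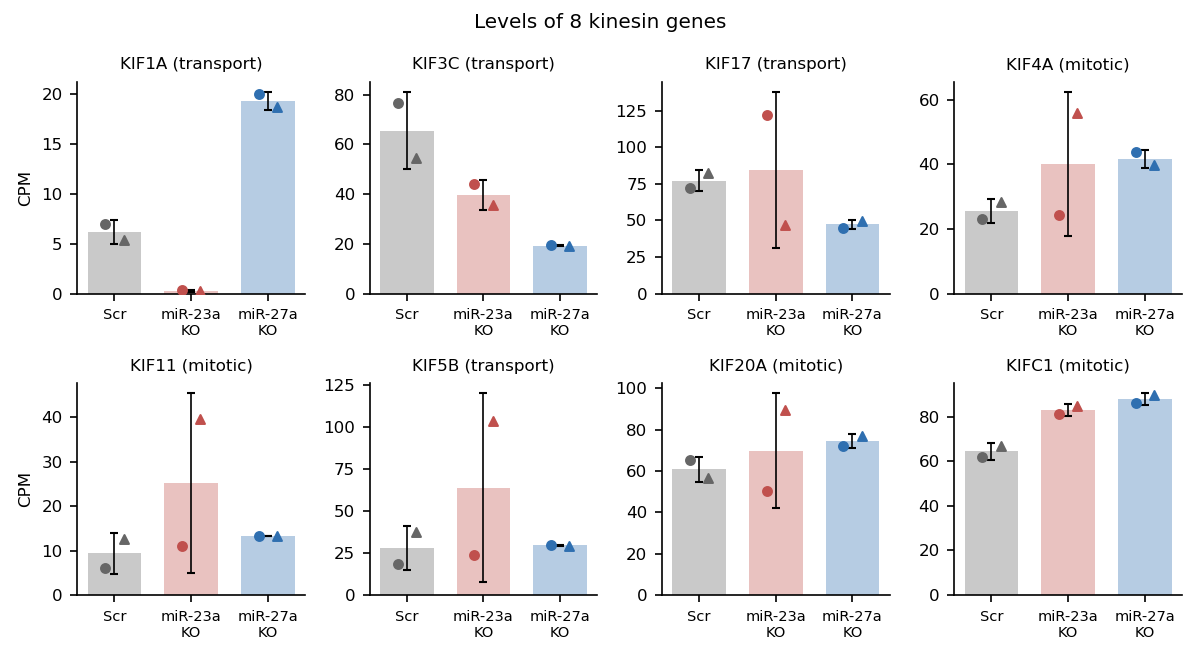
CPM (y axis, linear) of 8 named kinesins in the 6 libraries by group (x axis), 1 panel per gene. Circles are replicate 1, triangles replicate 2, bars the mean and error bars the SD of 2 libraries, and *KIF1A* is lowest in the miR-23a knockout and highest in the miR-27a knockout without overlap.

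When the knockout groups were set directly against each other, the kinesin with the largest difference was *KIF1A*. With 4 and 4 counts against 330 and 310, its log2 fold change of miR-23a KO over miR-27a KO was -6.20 (SE 0.49), with an unadjusted p of 7.3e-05 and an adjusted p of 0.0803 by edgeR. The same gene was called in 5 of 7 other settings (-6.23 to -6.17, adjusted p from 4.6e-13 to 0.0804), and without each of the 4 libraries in turn. *KIF3C*, at 44.0 and 35.4 CPM against 19.4 and 19.1, had a log2 fold change of 1.05 (SE 0.33, adjusted p = 0.436 by edgeR), and was called without miR-23a KO replicate 1 (0.87) or 2 (1.20). Without miR-27a KO replicate 1 or 2 it was not called (1.05 and 1.03, adjusted p = 1.00 in both by edgeR).

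By edgeR, 0 of 34 kinesins were called in this comparison, where the share of all 13841 genes was 0% higher and 0% lower. At an unadjusted p under 0.05 there were 2 kinesins, and 645 genes higher and 562 lower in all, and DESeq2 called 1 kinesin, with 259 genes higher and 218 lower. The miR-23a KO pair exceeded the miR-27a KO pair without overlap in 6 kinesins (17.6%), where the share of all genes was 18.7%, and lay below it in 5 (14.7%), where it was 20.7%. Of the mitotic kinesins 8 of 12 were higher in the miR-23a knockout, with a median of 0.71, and of the transport kinesins 10 of 14, with a median of 0.54, where 57.6% of all genes were higher. With GC content and length corrected these medians were 0.45 and 0.41. The sign of both medians rests on 1 library, since without miR-23a KO replicate 2 they were -0.19 and -0.40. With miR-23a KO replicate 1 left out 17 kinesins were called, with replicate 2 left out also 17, and 1 without either miR-27a KO library. All genes were called at 34.2%, 51.4%, 0.526% and 0.5% in these fits, against 50% of kinesins in each of the first 2 and 2.94% in each of the last 2. Mitotic minus transport was 0.17 here, 0.04 with GC content and length corrected, 0.42 without miR-23a KO replicate 1, 0.29 without miR-27a KO replicate 1 and 0.07 without miR-27a KO replicate 2.

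The partners of mitotic kinesins on the spindle were read for comparison, in a list of 12 genes. *CENPE* in this list is itself a mitotic kinesin, left out of the family because its symbol falls outside the rule. Its log2 fold change was 0.77 (SE 0.86) in the miR-23a knockout and -0.43 (SE 0.55) in the miR-27a knockout, both against Scr. The whole list is described next. All 12 were tested, and in the miR-23a knockout 12 of 12 were higher than Scr, and their median was 0.44 on the log2 scale (0.20 to 1.56) and 0 called by edgeR and by DESeq2, where 1 had an unadjusted p under 0.05. Of all genes 63.0% were higher and 2.41% had an unadjusted p under 0.05 by edgeR. Without miR-23a KO replicate 1 the median was 0.79, and without replicate 2 it was 0.11 with 7 of 12 higher. By library, 7 of 12 lay above the mean of Scr in miR-23a KO replicate 1 (median 0.12) and 12 in replicate 2 (median 0.75). In both libraries 2 (16.7%) lay above both Scr libraries, where the share of all genes was 8.88%. In the miR-27a knockout 8 of 12 were higher with a median of 0.23, and 1 was called by edgeR and by DESeq2, the spindle-assembly protein gene *NUSAP1* (0.64, adjusted p = 0.0440 by edgeR), where 50.9% of all genes were higher and 3.52% were called higher. *NUSAP1* was called without Scr replicate 2 (0.81) and not without Scr replicate 1 (0.50, under 1.5-fold) or either miR-27a KO library (0.60 and 0.69). The list median was 0.13 without Scr replicate 1 and 0.37 without Scr replicate 2. In miR-27a KO against Scr, 0 spindle partners were called with no filter on low counts or with all 6 libraries in 1 fit. The same held with GC content and length corrected, alone or with the replicate block. The list median in these fits was 0.23 to 0.27. With median-ratio scaling, or with the block alone, 1 was called. In the main fit TPX2, which activates Aurora A, and PRC1, which KIF4A binds, had adjusted p-values of 0.0221 and 0.0324 by edgeR at log2 fold changes of 0.54 and 0.46, under 1.5-fold. TTTGAA was found in 6 of the 8 partner promoters matched, like the 9 of 12 in mitotic kinesins.

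The proliferation markers *MKI67* and *TOP2A* were read beside the mitotic kinesins. *MKI67* had 717 and 1346 counts in Scr, 566 and 3383 in the miR-23a knockout, and 1792 and 1800 in the miR-27a knockout. *TOP2A* had 472 and 742, 401 and 2998, and 1067 and 1075 in that order. Their median relative to Scr was -0.53 and 1.71 in the miR-23a knockout, and 0.68 and 0.68 in the miR-27a knockout. In miR-23a KO replicate 1 the markers lay below both Scr libraries while the mitotic kinesin median of 0.30 lay above both. Both genes had adjusted p-values over 0.05 in each comparison by edgeR, at log2 fold changes of 0.78 and 1.32 in the miR-23a knockout and 0.62 and 0.64 in the miR-27a knockout. For miR-23a KO against Scr they were -0.71 and -0.44 without miR-23a KO replicate 2, and 1.41 and 2.00 without replicate 1, where *TOP2A* was called. For miR-27a KO against Scr they were 0.26 and 0.37 without Scr replicate 1, and 1.12 and 0.98 without Scr replicate 2, where both were called. DESeq2 called *TOP2A* in the miR-27a knockout and neither gene in the other comparisons. With the replicate block edgeR called both in miR-27a KO against Scr, where 12.3% of all genes were called, and with block and correction 0. With GC content and length corrected, their median log2 fold change went from 1.05 to 0.53 in the miR-23a knockout. In the miR-27a knockout it went from 0.63 to 0.46. The part of proliferation in the kinesin values was not tested.

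On the transport side, 11 kinesin light chains and cargo adaptors were tested. Their median log2 fold change was -0.05 in the miR-23a knockout, with 0 called by edgeR, 0 by DESeq2 and 0 at an unadjusted p under 0.05, and 0.02 in the miR-27a knockout, with 1 called by edgeR and 2 by DESeq2. The gene called by both was *KLC2*, a light chain that joins KIF5 heavy chains to cargo, with 87.9 and 75.1 CPM in Scr and 47.2 and 46.5 in the miR-27a knockout. It was lower in both knockout libraries and fell by 0.80 (adjusted p = 0.0165 by edgeR), where 6.74% of all genes were called lower. *KLC2* was not called without either miR-27a KO library (-0.81 and -0.78) or with GC content and length corrected (-0.49). For the opposing motor, cytoplasmic dynein with dynactin, 19 of 20 genes were tested, with medians of 0.05 in the miR-23a knockout and -0.09 in the miR-27a knockout. By edgeR 0 were called in either, and by DESeq2 also 0. At an unadjusted p under 0.05 there were 0 and 7, where the share of all genes was 2.41% and 32.2% by edgeR. Hepatocyte markers, 10 of 10 tested, had 0 called in the miR-23a knockout by edgeR and by DESeq2 (1 at an unadjusted p under 0.05). By either tool there were 1 higher and 3 lower in the miR-27a knockout, namely *TF* at 1.25 and *AFP*, *ALB* and *FGB* at -4.11, -2.59 and -2.05 (adjusted p = 0.0212, 0.00262, 0.00538 and 0.0212 by edgeR). The list median there was -0.14, with 4 higher and 6 lower, and the shares of all genes called are the 3.52% and 6.74% given above. With all 6 libraries in 1 fit 1 marker was called, and with GC content and length corrected 3, where 0.452% and 11.1% of all genes were called. With the replicate block there were 5, and with block and correction 6, where 12.3% and 13.3% of all genes were called. Without any of the 4 libraries in turn *ALB*, *AFP* and *FGB* were still called, and *TF* was not without miR-27a KO replicate 2 (1.24, adjusted p = 0.0623 by edgeR). In miR-23a KO against Scr, leaving out miR-23a KO replicate 1 gave 0 calls among adaptors, 2 among dynein and dynactin genes and 0 among hepatocyte markers, and leaving out replicate 2 gave 2, 3 and 3, where 4.12% and 18.6% of all genes were called.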

How the data were processed

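RNA-seq of 6 HepG2 libraries was used. The authors deposited expected counts per gene, not scaled for depth or length although the column names say FPKM, as judged from the values. Counts were rounded, filtered with filterByExpr, scaled by TMM and tested pair by pair over all genes with edgeR's quasi-likelihood test and Benjamini-Hochberg adjustment (R 4.3.3, edgeR 4.0.16). Called means more than 1.5-fold with an adjusted p under 0.05. The study's 0.001 is given for miR-27a KO against Scr, and 0 genes passed it in the other comparisons. Log2 levels used a prior count of 2. CPM used TMM factors over 6 libraries, from 0.796 to 1.166. Lengths, GC content and 3′-UTRs came from GENCODE 29, promoters and miRNAs from RefSeq, read with Python 3.11.15. Precision is set by the replicate spread, a coefficient of variation of 0.446 for miR-23a KO against Scr, 0.159 for miR-27a KO against Scr and 0.415 between the knockouts.

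Members, classes and lists were chosen with earlier results of these data known. Named genes are *KIF1A*, *KIF5B*, *KIF11*, *KIF20A* and *KIFC1*, every kinesin called in a comparison, and for each comparison with Scr the 3 mitotic, 3 transport and 2 other tested kinesins with the largest absolute fold change. Kinesins named outside it, with the genes named from lists, were chosen after their values were seen.

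Alternatives were DESeq2 1.42.0, median-ratio scaling, no filter, all 6 libraries in 1 fit, the replicate number as a block, loess correction of GC content and length (span 0.5, degree 2), both of these together, another assignment to classes, and leaving out each library, where the lone library left is assumed to vary like the other group. The workflow was run on simulated data with less spread between libraries than here and with larger changes than most kinesins show. That run therefore does not measure how well changes of the size seen here are found. *KIF6* and *KIF26B* were left out of the tests for low counts.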

Additional observations from a re-analysis of the deposited data

Results flagged for a closer look

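Of the 34 tested kinesins, 3 (8.82%) had both miR-23a KO libraries on 1 side of both Scr libraries and both miR-27a KO libraries on the other, as had 859 of 14163 genes (6.07%). The difference was tested by setting the knockout groups against each other with edgeR, and no adjusted p was under 0.05. *KIF1A* lay below Scr in the miR-23a knockout and above it in the miR-27a knockout, with a log2 fold change between the knockouts of -6.20 (adjusted p = 0.0803 by edgeR). *KIF13B*, which carries membrane-associated scaffold proteins, did so too, with 548 and 616 counts in Scr, 314 and 657 in the miR-23a knockout, and 911 and 848 in the miR-27a knockout. In CPM its values were 38.1 and 41.6, 23.9 and 35.4, and 55.2 and 51.1, and the log2 fold change between the knockouts was -0.84 (adjusted p = 0.631 by edgeR). *KIFC3*, a minus-end motor of epithelial cells, went the other way, at 96.6 and 79.1 CPM in Scr, 185.3 and 99.1 in the miR-23a knockout, and 71.6 and 72.7 in the miR-27a knockout. Its log2 fold change between the knockouts was 0.98 (adjusted p = 0.631 by edgeR). With miR-23a KO replicate 1 left out *KIF13B* was called lower (-0.59) and *KIFC3* was at 0.45, under 1.5-fold. With replicate 2 left out *KIF13B* was called lower (-1.15) and *KIFC3* higher (1.36).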

How the results depend on the processing

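Among class medians, differences and counts of called kinesins, 80 of 93 values under other settings stayed within the limits set for them, and 13 moved. The limit was a 1.5-fold change for counts. For medians and differences it was the SD between libraries of a group, pooled over both groups compared. Where libraries differ much this limit is wide. The transport median in miR-23a KO against Scr went from 0.28 to 0.07 with the replicate block and still counted as kept. In miR-23a KO against Scr, the number of called kinesins went from 0 to 1 with DESeq2, to 1 with the replicate block and to 1 with the block joined to a correction of GC content and transcript length, where 0.457%, 0.501% and 0.440% of all genes were called. In miR-27a KO against Scr it went from 4 to 0 with all 6 libraries in 1 fit, a fit that takes in the spread of miR-23a KO, and to 8 with the block and the correction together, where 0.452% and 13.3% of all genes were called. The 8 were *KIF1A*, *KIF4A*, *KIF12*, *KIF18B* and *KIFC1* higher and *KIF3C*, *KIF5A* and *KIF21B* lower. The correction alone called 6, these without *KIF5A* and *KIF21B*, where 11.1% of all genes were called. Between the knockouts the number of called kinesins was 1 with DESeq2, with all 6 libraries, with the block, with the correction and with both together, or 2.94% of kinesins against 3.45%, 1.54%, 2.89%, 2.33% and 5.17% of all genes. Mitotic minus transport between the knockouts was 0.036 with the correction and 0.026 with block and correction. With *KIF2A* counted as mitotic and *KIF21A* and *KIF21B* as transport, the transport median in the miR-27a knockout was -0.082. The cause was not tested.

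The replicate block pairs libraries that share a replicate number, and the labels give no other ground for pairing. Across genes, deviations of equally numbered libraries correlated at 0.15 (miR-23a KO with Scr), 0.01 (miR-27a KO with Scr) and 0.02 (between the knockouts). With the block, mitotic and transport medians were 0.66 and 0.07 in the miR-23a knockout, 0.44 and -0.00 in the miR-27a knockout, and 0.55 and 0.33 between the knockouts.

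Of 315 values for named kinesins under other settings, 286 kept direction and side of the threshold, 14 passed it newly, 7 no longer passed and 8 reversed. With GC content and length corrected, and then with the block as well, *KIF5A* in the miR-23a knockout was 0.13 and 0.093, and *KIF5B* in the miR-27a knockout -0.074 and -0.046. Between the knockouts *KIF20A* was 0.13 and 0.12 and *KIF4A* 0.095 and 0.083. The cause was not tested.

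With each library left out in turn, called kinesins ran from 0 to 7 in the miR-23a knockout, from 1 to 13 in the miR-27a knockout and from 1 to 17 between the knockouts, while the share of all genes called ran from 0.028% to 18.6%, from 2.34% to 26.0% and from 0.5% to 51.4%. The mitotic median ran from 0.26 to 1.16, from 0.27 to 0.69 and from -0.19 to 0.78 in that order, the transport median from -0.59 to 0.42, from -0.13 to 0.094 and from -0.40 to 0.61, and their difference from 0.51 to 0.85, from 0.33 to 0.59 and from 0.074 to 0.42. Of 48 class values 24 moved beyond the limits set for them, and of 180 values for named kinesins 23 reversed. In the miR-23a knockout the ranges of those that did were -0.51 to 0.63 (*KIF12*), -0.28 to 1.62 (*KIF16B*), -0.68 to 0.66 (*KIF17*), -0.28 to 0.60 (*KIF20A*), -0.44 to 1.62 (*KIF21A*), -0.077 to 1.17 (*KIF4A*), -0.80 to 0.35 (*KIF5A*) and -0.22 to 1.93 (*KIF5B*). In the miR-27a knockout they were -0.13 to 0.74 (*KIF16B*) and -0.33 to 0.67 (*KIF5B*). Between the knockouts they were -0.28 to 1.56 (*KIF11*), -0.57 to 1.67 (*KIF14*), -0.73 to 1.75 (*KIF15*), -0.51 to 1.33 (*KIF16B*), -0.028 to 1.38 (*KIF17*), -0.57 to 0.26 (*KIF20A*), -0.048 to 1.96 (*KIF21A*), -0.36 to 0.58 (*KIF21B*), -0.78 to 0.42 (*KIF4A*), -0.069 to 1.02 (*KIF5A*) and -0.29 to 1.80 (*KIF5B*). The cause was not tested. At 4 counts a library, *KIF1A* in the miR-23a knockout is near the lower limit of what this depth can show.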
